A study of Mus musculus with 3 samples.

Results

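The phagocyte NADPH oxidase makes superoxide, and the superoxide dismutases and peroxide-removing enzymes dispose of it. Expression of 9 genes of this system, namely Cybb, Cyba, Ncf1, Ncf4, Rac2, Sod1, Sod2, Cat and Prdx5, was read in RAW264.7 cells, a macrophage line of mouse origin, at 0, 2 and 12 h of lipopolysaccharide (LPS), a cell wall component of Gram-negative bacteria. The genes were chosen by name for their roles, with earlier results of these arrays known. Every probe set annotated to 1 of them alone was taken. The annotation gave 13 probe sets for 8 of the 9 genes, out of 12393 named genes on the array. No probe set carried the name of Prdx5, which encodes a peroxiredoxin, so its expression was not analysed here. Each time was represented by 1 array. All 3 groups are the same cell line, and they differ by label in the hours of LPS alone. The LPS dose is not given in the sources used here, and no untreated array at 2 or 12 h was analysed here, so hours in culture and LPS cannot be told apart.

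The oxidase is held inactive in resting phagocytes by keeping its parts separate. Cybb and Cyba encode the heavy and light chains of the membrane flavocytochrome, the heavy chain carrying electrons from NADPH across the membrane to oxygen. Ncf1 and Ncf4 encode cytosolic subunits that move to the membrane on activation, and the small GTPase encoded by Rac2 joins them there. Superoxide is converted to hydrogen peroxide by the copper-zinc dismutase of the cytosol, encoded by Sod1, and by the manganese dismutase of mitochondria, encoded by Sod2. Catalase, encoded by Cat, breaks hydrogen peroxide down in peroxisomes.

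Values are linear array signals, scaled so that the trimmed mean is the same on the 3 arrays, and a log2 difference of 1 is a 2-fold difference. A floor was set at a signal of 34.96, and lower readings were raised to it before folds were taken. With 1 array per time there is no replicate and no test, and a 2-fold difference between 2 arrays is the size from which a gene is counted. Log2 differences from probe sets of the same gene had an SD of 0.32 at 2 h and 0.34 at 12 h, both relative to 0 h, and 0.31 between 2 and 12 h. This spread, chosen as a yardstick after the data were seen, leaves out differences between cultures. Macrophage markers above the floor on every array numbered 10 of 11, against 7318 of all 12393 genes. Of 30 markers of neutrophils, lymphocytes, fibroblasts, endothelium and epithelium that had a probe set, 21 were under the floor on every array, and their summed signal was 758 at 0 h, 621 at 2 h and 813 at 12 h, against 19510, 19890 and 22420 for the macrophage markers. Tnf, read for comparison, had signals of 184, 3346 and 1343 at 0, 2 and 12 h.

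At 12 h, 3 of the 8 measured genes were at least 2-fold higher than at 0 h, namely Cybb, Sod2 and Rac2, and none was 2-fold lower. The background over all 8629 measured genes was 3.01% at least 2-fold higher and 2.4% at least 2-fold lower. Among the 567 genes whose mean signal lay within the range of these 8, from 769 to 2331, the share 2-fold higher was 5.47%. The 8 genes were chosen with earlier results of these arrays known, so counts and shares are a description and no test. At 2 h none of the 8 was 2-fold apart from 0 h in either direction, where the shares of all genes were 2.09% higher and 1.69% lower, and 3.88% higher in the same signal range. The median log2 difference of the 8 genes was 0.16 at 2 h and 0.56 at 12 h, and that of all measured genes was -0.10 and -0.05. With the median over probe sets in place of the brightest, the 12 h median of the 8 genes was 0.35, and without probe sets that carry a suffix it was 0.31 over 7 genes.

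**Figure D1:**
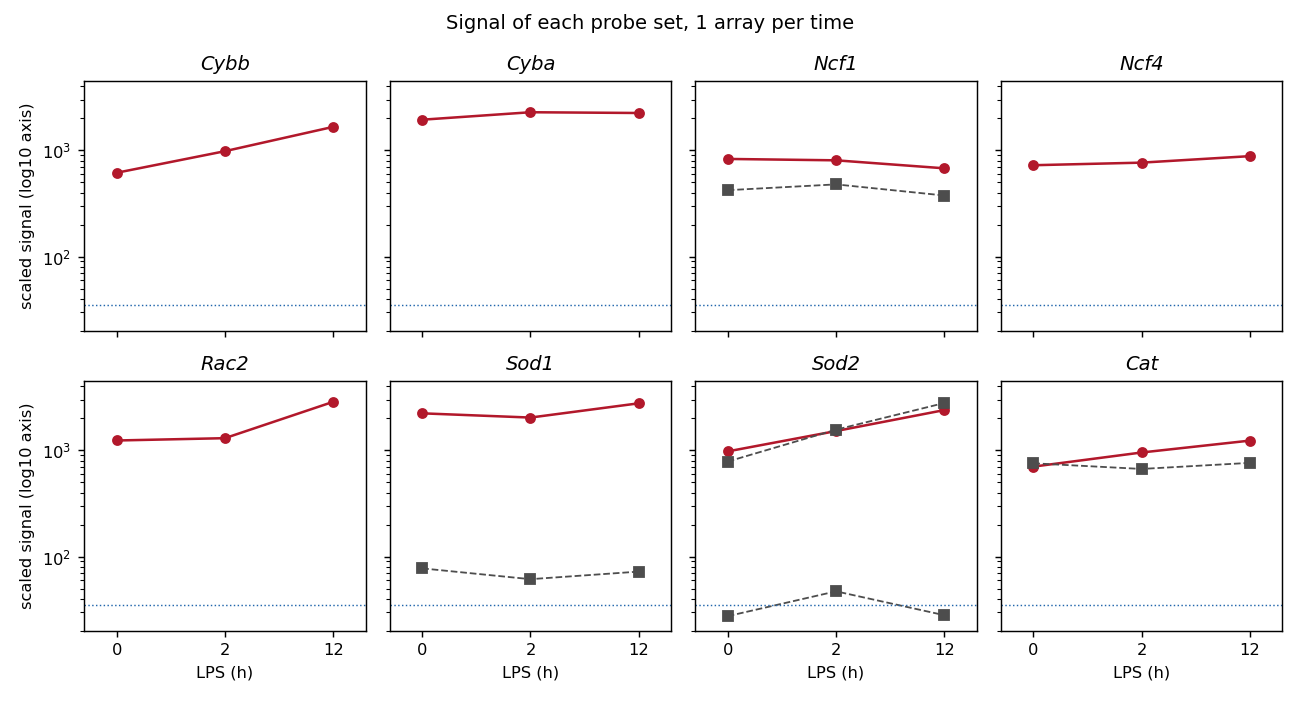
Scaled signal (log10 axis) of each of the 13 probe sets at 0, 2 and 12 h of LPS, with the times spaced evenly and 1 array per time. Red circles are the brightest probe set of a gene, grey squares its other probe sets, and the dotted blue line is the floor at 34.96; Cybb and the bright Sod2 probe sets are higher at each later time, while Rac2 is 1.05-fold apart between 0 and 2 h and 2.2-fold between 2 and 12 h.

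Cybb, the catalytic heavy chain, was higher at each later time. Its probe set had a signal of 615 at 0 h, 983 at 2 h and 1666 at 12 h. It was 1.60-fold higher at 2 h (log2 difference 0.68) and 2.71-fold higher at 12 h (1.44). Among measured genes, 95.9% had a lower log2 difference at 2 h and 98.6% at 12 h. Between 2 and 12 h it was a further 1.70-fold higher.

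Cyba, whose protein stabilises the heavy chain and anchors the cytosolic subunits, had signals of 1945, 2287 and 2250. The 2 h and 12 h readings were 1.18-fold and 1.16-fold above 0 h, so the 3 arrays lay close together. The probe set of Cyba carries a suffix that marks a possible reading of several transcripts. At 12 h the log2 difference of Cybb exceeded that of Cyba by 1.23, which is 2.56 times the SD expected for a difference of 2 probe sets. At 2 h the gap was 0.44, or 0.98 times that SD. The genes of the flavocytochrome's 2 chains thus had unequal differences at 12 h. Their gap at 2 h was within the spread between probe sets.

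The promoters of these genes are shown because the 2 chains of the flavocytochrome had different readings. The RefSeq table of assembly GRCm38.p6 held a promoter window for 7 of the 9 genes, all but Ncf4 and Rac2, and the 250 bases before the annotated start are printed from 5′ to 3′ on the strand of the gene. The Cybb window is chrX:9469325-9469574 on the minus strand and the Cyba window is chr8:122432941-122433190 on the minus strand. Capitals mark letters that match a searched motif.
Cybb: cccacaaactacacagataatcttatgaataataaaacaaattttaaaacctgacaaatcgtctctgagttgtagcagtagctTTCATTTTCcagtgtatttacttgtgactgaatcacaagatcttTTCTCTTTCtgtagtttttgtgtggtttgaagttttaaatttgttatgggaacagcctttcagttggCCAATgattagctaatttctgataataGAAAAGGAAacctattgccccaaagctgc
Cyba: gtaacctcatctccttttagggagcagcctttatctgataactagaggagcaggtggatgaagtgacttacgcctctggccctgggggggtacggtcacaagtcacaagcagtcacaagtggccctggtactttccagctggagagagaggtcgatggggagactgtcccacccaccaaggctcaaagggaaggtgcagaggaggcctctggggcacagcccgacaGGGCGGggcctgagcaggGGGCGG

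The motifs searched on both strands were the PU.1 core GAGGAA, the interferon-type core GAAANNGAA, the interferon-gamma activated site TTCNNNGAA, the GC box GGGCGG, the CCAAT box, the TATA box TATAAA, the antioxidant response element TGACNNNGC and the NF-kB consensus. The Cybb window was 34% G and C, against a median of 52.4% over all 32851 promoter windows, and held 3 matches to the interferon-type core and 1 CCAAT box. The first bases of the 3 core matches lay 167, 123 and 29 bases before the start, and no match overlapped another. The interferon-type core was found in 7.13% of all windows and CCAAT in 33.8%, shares that were not matched for G and C content. The Cyba window was 60% G and C and held 2 GC boxes, the motif of 32.7% of all windows, and none of the others. A match in these letters is a description of the sequence and not a measured binding site.

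None of the measured readings of Ncf1 and Ncf4, genes of cytosolic subunits, was 2-fold apart between arrays. Ncf1, which encodes the organiser subunit, had signals of 831, 806 and 678 by its brighter probe set. A second probe set, designed on the same sequence record, gave 422, 478 and 376. Both readings were lowest at 12 h, at 0.816 and 0.891 times the 0 h signal. The log2 difference of the brighter one was -0.29 at 12 h, which is smaller than the SD between probe sets. At 2 h the probe sets of Ncf1 lay on either side of 0, at -0.04 and 0.18.

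Ncf4, whose product binds membrane phosphoinositides, had signals of 725, 767 and 883. The 0 and 2 h readings were 1.06-fold apart, and at 12 h Ncf4 was 1.22-fold above 0 h, both within the spread between probe sets. At 12 h the log2 difference of Cybb exceeded that of Ncf1 by 1.73, or 3.61 times the SD expected for a difference of 2 probe sets.

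Rac2, the GTPase gene of the haematopoietic lineage, was at least 2-fold higher at 12 h than at both 0 h and 2 h. Its signals were 1240, 1304 and 2870. The 0 and 2 h readings were 1.05-fold apart, and at 12 h it was 2.31-fold above 0 h and 2.20-fold above 2 h. It was the 1 gene of the 8 at least 2-fold higher at 12 h than at 2 h, where 2.65% of 8467 measured genes were higher and 1.98% lower, and 1.94% were higher in the same signal range. The closely related GTPase gene Rac1, which is expressed in most cell types, had signals of 1419, 1329 and 1194. At 12 h the log2 difference was 1.21 for Rac2 and -0.25 for Rac1, a gap of 1.46 that is 3.04 times the SD expected for a difference of 2 probe sets.

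Among the 3 genes 2-fold higher at 12 h, Rac2 had the smallest share of its 12 h log2 difference at 2 h. Cybb had 47% of its 12 h log2 difference at 2 h, the brightest probe set of Sod2 49.3% and Rac2 6%. Of 195 genes that were above the floor on every array and at least 2-fold higher at 12 h, 60 had already passed 2-fold by 2 h, and in 85 the 12 h signal was 2 or more times the 2 h signal. The median share reached at 2 h was 42.2%, with quartiles at 8.06% and 85.2%. In the settings reported, Cybb and Sod2 were therefore near the middle of that range and Rac2 below its lower quartile. The Rac2 share is uncertain, since its 2 h log2 difference ran from -0.006 to 0.216 under the alternatives of processing.

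**Figure D2:**
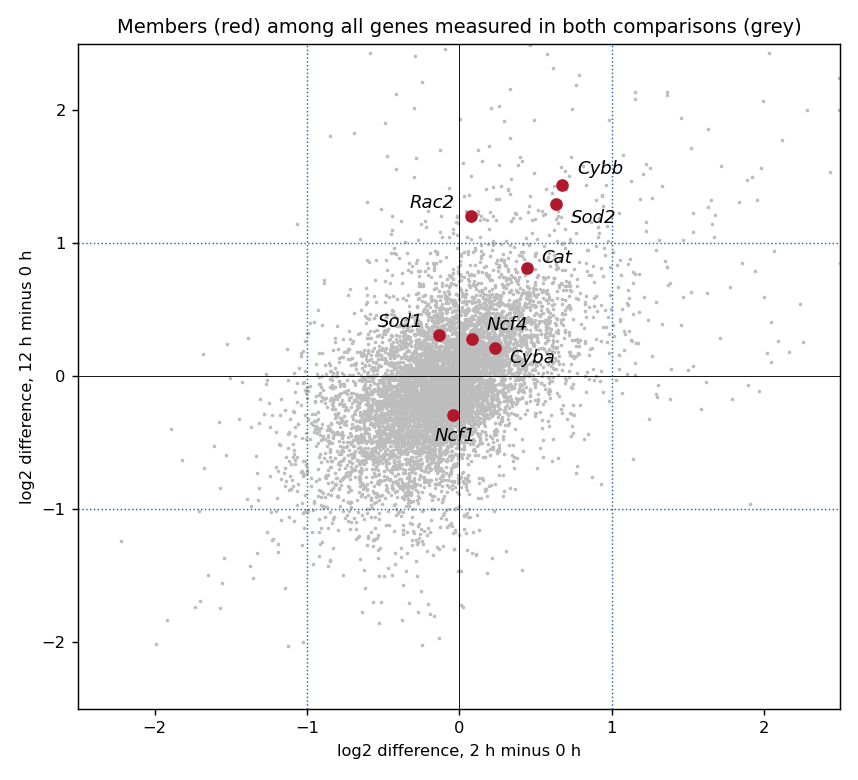
Log2 difference of 12 h from 0 h (vertical) against that of 2 h from 0 h (horizontal), for the 8 members (red, named) and all 8312 genes measured in both comparisons (grey), of which 59 lie outside the axes. Dotted lines mark 2-fold; Cybb, Sod2 and Rac2 lie above the upper line at 12 h and no member is beyond 2-fold at 2 h. The axes share the 0 h array, so the slope of the cloud is no result.

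Sod2, the mitochondrial manganese dismutase, was higher at each later time by both of its bright probe sets. The brightest gave signals of 979, 1522 and 2399, so 1.56-fold and 2.45-fold higher at 2 and 12 h. The other gave 785, 1568 and 2797, so 1.997-fold and 3.56-fold higher, the first just short of 2-fold. The log2 differences at 12 h were 1.29 and 1.83, and the gap of 0.54 between them was 1.12 times the SD expected for a difference of 2 probe sets. The remaining Sod2 probe set was dim, with 27.5, 47.1 and 28.0, under the floor at 0 and 12 h, and gives no fold for 12 h. By the brightest probe set, 98.2% of measured genes had a lower log2 difference at 12 h.

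Sod1, the cytosolic copper-zinc dismutase, was not 2-fold apart between any 2 arrays. Its bright probe set had signals of 2235, 2039 and 2778, or 1.24-fold above 0 h at 12 h. A dim probe set had 77.4, 61.3 and 72.2, slightly under the 0 h reading at 12 h. The log2 difference of Sod2 exceeded that of Sod1 by 0.77 at 2 h and 0.98 at 12 h, or 1.71 and 2.04 times the SD expected for a difference of 2 probe sets. Sod3, the extracellular dismutase gene, was under the floor on all 3 arrays. Ccs, whose product loads copper onto the cytosolic enzyme, had 199, 140 and 145, a log2 difference of -0.51 at 2 h and -0.46 at 12 h.

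The promoters of the 2 intracellular dismutase genes, 1 of which was at least 2-fold higher at 12 h, are set side by side. The Sod2 window is chr17:13007589-13007838 and the Sod1 window is chr16:90220512-90220761, both on the plus strand, with the same motifs in capitals.
Sod2: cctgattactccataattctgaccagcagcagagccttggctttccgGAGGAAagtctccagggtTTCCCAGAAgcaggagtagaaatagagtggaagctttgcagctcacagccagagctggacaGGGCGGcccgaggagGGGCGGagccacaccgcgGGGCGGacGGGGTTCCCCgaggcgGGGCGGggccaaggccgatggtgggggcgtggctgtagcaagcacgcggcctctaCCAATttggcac
Sod1: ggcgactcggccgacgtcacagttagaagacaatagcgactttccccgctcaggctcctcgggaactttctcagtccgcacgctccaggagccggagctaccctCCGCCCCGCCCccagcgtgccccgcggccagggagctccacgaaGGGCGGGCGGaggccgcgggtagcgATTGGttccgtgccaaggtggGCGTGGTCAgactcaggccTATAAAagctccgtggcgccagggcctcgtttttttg

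The Sod2 window, 63.6% G and C, held a match to the NF-kB consensus whose letters run 83 to 74 bases before the start and which matches on both strands. It also held a PU.1 core, an interferon-gamma activated site, 4 GC boxes and a CCAAT box, none overlapping another. The Sod1 window, 66.4% G and C, had no NF-kB match in these letters. It held 4 GC boxes in 2 overlapping pairs, a CCAAT box, a TATA box and an antioxidant response element. Of all windows, 7.25% held the NF-kB consensus, 23.3% the PU.1 core, 7.02% the activated site, 12.4% the TATA box and 10.2% the antioxidant response element. Among the 7 genes with a window, the NF-kB consensus and the PU.1 core were each found in Sod2 and Cat. The activated site was found in Sod2 and Ncf1, the interferon-type core in Cybb and Ncf1, and the GC box in all but Cybb. The CCAAT box was found in Cybb, Sod1, Sod2 and Cat. Ncf1 had the lowest 12 h log2 difference of the 8 measured genes, at -0.29. Any link between motifs and readings was not tested.

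Cat, the catalase gene, gave readings that depended on the probe set. The brighter one had signals of 703, 956 and 1237, so 1.36-fold higher at 2 h and 1.76-fold higher at 12 h. The other had 757, 669 and 764, or 0.884 and 1.01 times the 0 h signal. The probe sets differed by 0.62 in log2 difference at 2 h and by 0.80 at 12 h, which is 1.38 and 1.67 times the SD expected. The first carries a suffix for a possible reading of several transcripts and the second does not. The direction of Cat at 2 h is therefore uncertain, and at 12 h the readings ran from no difference to 1.76-fold.

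With 1.5-fold as the size that counts, 2 of the 8 genes were higher at 2 h, namely Cybb and Sod2, where 5.6% of measured genes were. At 12 h the number was 4, with Cat added to Cybb, Sod2 and Rac2, against 8.32% of measured genes. For 12 h against 2 h it was 3, namely Cybb, Sod2 and Rac2, against 10.2%. The order of the 8 log2 differences at 12 h ran from Cybb at 1.44, Sod2 at 1.29 and Rac2 at 1.21 to Cat at 0.81, Sod1 at 0.31, Ncf4 at 0.28, Cyba at 0.21 and Ncf1 at -0.29. Neighbours in this order differed by less than the SD expected for a difference of 2 probe sets, except Cat and Sod1, and Cyba and Ncf1, which were just above it.

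Some macrophage markers were also higher at the late time. Of 10 measured markers, 4 were at least 2-fold higher at 12 h than at 0 h and none was 2-fold lower. Of all measured genes, 3.01% were higher and 2.4% lower. The 4 markers were Adgre1 (2.12-fold), Itgam (2.27-fold), Fcgr1 (2.48-fold) and Mpeg1 (2.31-fold). The median log2 difference of the 10 markers was 0.53 at 12 h and -0.05 at 2 h. Markers on the lower side at 12 h were Fcgr3 at a log2 difference of -0.60, Csf1r at -0.34 and Cd68 at -0.13. Lyz2, the lysozyme gene, was level, with signals of 6250, 6130 and 6308. Spi1, which encodes the myeloid transcription factor PU.1, had 631, 1255 and 965, or 1.99-fold higher at 2 h and 1.53-fold at 12 h, and it passed 2-fold at 2 h, at a log2 difference of 1.14, with median scaling. The part of these differences in the readings of Cybb, Rac2 and Sod2 was not tested. In an RNA sample from many cells, a change in the RNA of each cell and a change in the share of cells that express a gene cannot be told apart.

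Other genes of the same chemistry lay in both directions. Of 61 listed genes outside the 8 that had a probe set, 13 were under the floor on all arrays. At 12 h, 3 of 48 measured ones were at least 2-fold higher and 2 lower, with a median log2 difference of -0.08. Of all measured genes, 3.01% were higher and 2.4% lower. At 2 h, 1 of 46 was higher and 2 were lower, with a median of -0.06, against 2.09% and 1.69% of all measured genes. The lists were drawn up with earlier results of these arrays known.

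Among partners of the oxidase, Rac1, Rap1a and the chaperone gene Cybc1 had log2 differences from -0.25 to -0.18 at 12 h and from -0.54 to -0.09 at 2 h. Probe sets were named for 4 of the genes listed for other NADPH oxidases, Nox4, Noxo1, Duoxa1 and Duoxa2, and all were under the floor on every array. In the list of kinases, exchange factors and channels that act upstream or beside the oxidase, 1 of 14 measured genes was 2-fold higher at 12 h. The share of all measured genes was 3.01%. The gene of this list was Syk, a tyrosine kinase of Fc receptor signalling, with signals of 87.0, 94.7 and 203. Its other probe sets gave 2.53-fold and 3.0-fold at 12 h. Syk was short of 2-fold, at a log2 difference of 0.97, when a pseudocount was added rather than a floor set. The largest 2 h difference of that list was in Prkcd, a protein kinase C gene, with 416, 612 and 550. The lowest at 12 h was Pik3cg, a phosphoinositide kinase gene, at -0.57.

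Of 6 measured peroxide-removing genes other than Cat and Prdx5, 1 was at least 2-fold lower at 12 h and none 2-fold higher. Their median log2 difference was -0.24. Of all measured genes, 2.4% were 2-fold lower at 12 h and 3.01% higher. Gpx4, the glutathione peroxidase that reduces lipid peroxides, had 660, 677 and 321, or 2.05-fold lower at 12 h. Its second probe set had 222, 357 and 194, a 12 h signal of 0.873 times that at 0 h, so Gpx4 was not 2-fold lower by that reading. Gpx1, the main cytosolic glutathione peroxidase gene, had 3341, 3162 and 2247, a log2 difference of -0.57 at 12 h. Prdx2, a cytosolic peroxiredoxin gene, had 655, 918 and 871. Its log2 differences, 0.49 at 2 h and 0.41 at 12 h, were the highest of the list by the brightest probe set. By the median over probe sets they were 0.243 and 0.205, and Gpx4 was higher at 2 h, at 0.362.

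The thioredoxin and glutaredoxin list held larger differences in both directions. Srxn1, which encodes sulfiredoxin, the enzyme that restores over-oxidised peroxiredoxins, had 222, 708 and 514, or 3.20-fold higher at 2 h and 2.32-fold at 12 h. Its other 3 probe sets gave 1.39-fold to 2.78-fold at 2 h, and without suffixed probe sets its 12 h log2 difference was 0.89, short of 2-fold. Glrx, the glutaredoxin gene, had 1103, 1378 and 2926, or 2.65-fold higher at 12 h, and 3.26-fold by its second probe set. Txnip, whose product binds thioredoxin, had 698, 188 and 529, so it was 3.71-fold lower at 2 h and 1.32-fold lower at 12 h, or 2.81-fold higher at 12 h than at 2 h. Sesn1, a sestrin gene, had 249, 96.2 and 92.9, or 2.59-fold and 2.68-fold lower. Its other probe sets read 0.328 and 0.256 times the 0 h signal at 2 h, and without suffixed probe sets the log2 differences were -1.97 at 2 h and -2.00 at 12 h. The Sesn1 probe set without a suffix read 139.8, 35.78 and 28.65. It was near the floor at 2 h and under it at 12 h, so its 12 h value is a bound. NADPH supply genes had no member 2-fold apart at either time by the brightest probe set: of 11 measured, the highest log2 difference was that of Nadk, an NAD kinase gene, at 0.61 at 2 h and 0.54 at 12 h. The lowest were Mthfd1 at -0.42 at 2 h and Me2, a malic enzyme gene, at -0.87 at 12 h. By the median over probe sets Me2 was at -0.21 at 12 h, and Nnt, the mitochondrial transhydrogenase gene, was at -1.03, past 2-fold lower, against -0.78 by its brightest probe set.

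**Figure D3:**
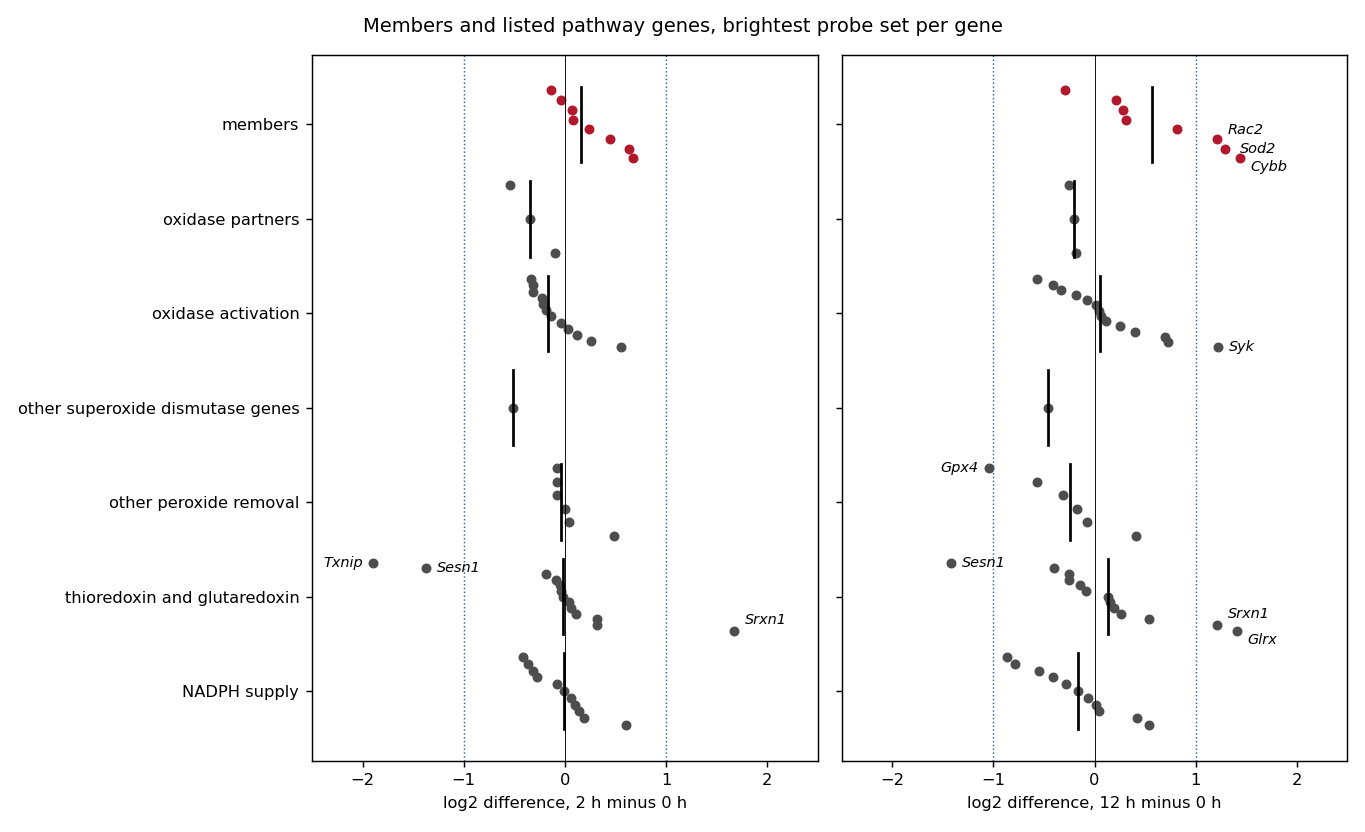
Log2 difference from 0 h of the 8 members (red) and of each measured gene in 6 pathway lists (grey), at 2 h (left) and 12 h (right), brightest probe set per gene, with a black bar at each list's median and dotted lines at 2-fold. A gene under the floor on 1 of the 2 arrays is drawn at its bound, and genes past 2-fold are named. At 12 h the members' median lies at 0.56, or at 0.35 by the median over probe sets, which is not drawn. The medians of the 6 lists run from -0.46, where Ccs alone was measured, to 0.14.

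Genes with the most similar course were sought among 7318 genes above the floor on all 3 arrays, by the distance between log2 differences at 2 and 12 h. For Cybb the nearest were the glucose transporter gene Slc2a1 (distance 0.007), Basp1 (0.022) and Bcar3 (0.055). Slc2a1 had signals of 299, 480 and 810. Without suffixed probe sets its log2 differences were 0.99 at 2 h and 1.35 at 12 h, against 0.68 and 1.44 for Cybb. The nearness of Slc2a1 to Cybb therefore depends on the probe set. For Rac2 the nearest were Oas1a (0.011), an interferon-induced gene with 752, 785 and 1740, then Pld3 (0.049) and Syk (0.052). For the brightest probe set of Sod2, at 0.64 and 1.29, they were Pdia5 (0.084), Rilpl2 (0.093) and Cpd (0.10). The other bright Sod2 probe set was at 0.998 and 1.83, and Cpd was at 0.84 and 1.63 by the median over probe sets. The nearest genes of Sod2 therefore also depend on the probe set. All these distances are smaller than the SD between probe sets, so the order of the near genes is not resolved. Each distance rests on 3 arrays, and Bcar3 and Pdia5 lay near the floor at 0 h, with 60.2 and 62.2. A higher floor, the 60th percentile, brought their 12 h log2 differences to 0.94 and 0.77, short of 2-fold.

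Cybb, Rac2 and Sod2 stayed at least 2-fold higher at 12 h under every alternative of scaling, floor, pseudocount and probe set that was run. Cybb and Rac2 have 1 probe set each and signals far above the floor. For them only median scaling, quantiles and the pseudocount could move the value appreciably. Across these the log2 difference at 12 h ran from 1.36 to 1.48 for Cybb, from 1.11 to 1.26 for Rac2 and from 1.20 to 1.61 for Sod2. At 2 h it ran from 0.62 to 0.82 for Cybb and from 0.59 to 0.96 for Sod2. Scaling to the median moved the median of all measured genes at 2 h from -0.10 to 0.03. At 2 h the signs of Ncf1, Ncf4, Rac2 and Sod1 turned under at least 1 alternative, so their 2 h readings carry no direction. Cat ran from -0.18 to 0.59 at 2 h and from 0.01 to 0.86 at 12 h.

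**Figure D4:**
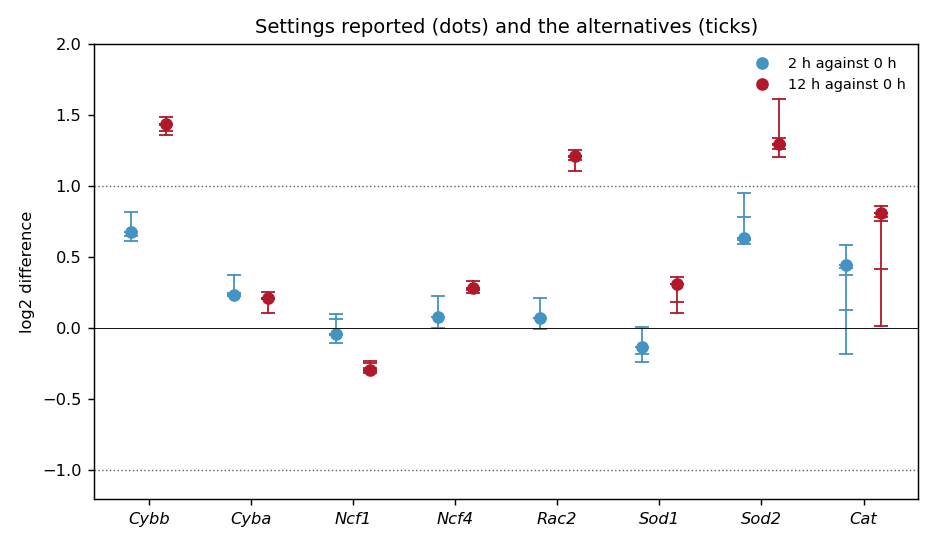
Log2 difference from 0 h of each of the 8 members at 2 h (blue) and 12 h (red) in the settings reported (dots) and under the alternatives of scaling, floor and probe set (ticks joined by a line), with dotted lines at 2-fold. Cybb, Rac2 and Sod2 stay above 2-fold at 12 h throughout, and Cat has the widest line, from 0.01 to 0.86 at 12 h.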

How the data were processed

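Gene expression was measured on 1-colour arrays in RAW264.7 cells, 1 array per time. Per the labels, target was made from 5 µg of total RNA by a modified Affymetrix procedure. No label names the scanner software or the normalization. The deposited values are linear intensity readings of 22690 probe sets, including 64 controls. Their 2% trimmed mean was already about 150.1 on each array, so a change in total mRNA would not be seen.

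Arrays were brought to exactly the same 2% trimmed mean, leaving controls out, and readings under the 40th percentile were raised to it. Probe sets with 1 gene in the platform annotation numbered 20393, of which 20364 matched a RefSeq gene of GRCm38.p6, used for names. The probe set with the highest mean log2 signal stood for a gene. The named genes were the 9 members, the extremes of each list and its genes at least 2-fold apart, and the 3 nearest patterns of Cybb and of each member 2-fold apart. Lyz2, Csf1r, Cd68, Gpx1 and Nnt, and the pairs of members compared, were chosen after their values were seen. Members and lists were chosen with earlier results of these data known. The counting was tested on data simulated from the 0 h array, with less noise than the spread between probe sets. That simulation held no differences between cultures, so it does not bear on how sure the calls made here are. Python 3.11.15, pandas 2.3.3 and SciPy 1.17.1 were used.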

Additional observations from a re-analysis of the deposited data

How the results depend on the processing

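Alternatives covered scaling (none, by the median, or by quantiles), the floor (the 20th or 60th percentile, or a pseudocount of its size), the probe set (the median over all, or those without a suffix) and the fold (1.5 or 3). The 3 genes called at 12 h against 0 h stayed called under all of them but the fold of 3, which left 0, and the 1 gene called at 12 h against 2 h likewise became 0. That 0 holds for the brightest probe sets, and the other bright Sod2 probe set was 3.56-fold higher at 12 h than at 0 h. With a fold of 1.5 the number of genes called was 2 at 2 h and 3 for 12 h against 2 h. The members' median log2 difference stayed above 0 in all 3 comparisons. Of 189 values of single members, 186 moved by less than the SD between probe sets and 3, all of Cat, moved further: -0.18 at 2 h and 0.01 at 12 h without suffixed probe sets, and 0.41 at 12 h by the median over probe sets. Cyba had no value without suffixed probe sets. Many of the 189 values could not move. The 20th and 60th percentile floors lay far below the brightest probe sets of the members. The median over probe sets could not change a member with 1 probe set. Alternatives for the other named genes were added after seeing the data: of 684 values 27 moved further and none turned a called direction. Of those called at 2-fold, Gpx4 at 12 h was at -0.99 with median scaling, -0.97 with the pseudocount and -0.62 by the median over probe sets, all short of 2-fold. At 12 h, Srxn1, Syk, Bcar3 and Pdia5 each fell short of 2-fold under at least 1 alternative, with 0.89, 0.97, 0.94 and 0.77. Past 2-fold only under an alternative were Spi1 at 2 h, at 1.14 with median scaling, and Nnt at 12 h, at -1.03 by the median over probe sets. With 1 array per time, no array could be left out and no paired analysis was possible because no time has a second array.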
